A study of Mus musculus with 6 samples.

Results

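Shared distal regions with stable rank are open chromatin sites away from promoters. Their places in the strength orders of parent NSPCs and of ΔSRR2–18 NSPCs differed by less than 20 percentile points. A region was a member when its parent interval overlapped a ΔSRR2–18 interval by at least 1 bp, its strongest parent summit lay more than 1 kb from every TSS of the GENCODE M21 basic annotation of mm10, and its percentile in the ΔSRR2–18 list minus its percentile in the parent list lay between -20 and 20, limits excluded. The percentile runs from 0 to 100 and ranks the highest fold enrichment of an interval within its own list. Of 82885 parent intervals, 25432 were shared and distal, and 13594 of these, or 53.5%, were members. The other shared distal regions serve as the comparison: 5813 ranked higher in ΔSRR2–18 NSPCs by 20 points or more and 6025 ranked lower by 20 points or more, and they are called higher-ranked and lower-ranked below.

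The parent NSPCs came from Clone 5B, a line of F1 ESCs of 129S1 and Cast genomes with mCherry at *Sox2* on the 129 allele and no deletion. The ΔSRR2–18 NSPCs came from the single Clone 47D of the same background, which carries the same reporter and lacks the SRR2–18 enhancer cluster downstream of *Sox2* on both alleles. Both were grown as NSPCs in N2B27 medium with EGF and bFGF, with 3 cultures per genotype and no age or other treatment given. With a single deleted clone, a difference between genotypes and a difference between clones cannot be told apart. The question addressed is which distal open chromatin kept its rank within these limits when this enhancer cluster was absent. A second question is how those sites differ in sequence and position from the shared sites that moved further.

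ATAC-seq maps DNA that a transposase can reach, and outside promoters most such sites are enhancers, insulators or other protein-bound elements. CTCF is a zinc finger protein that is bound at many of the same sites in most cell types. It stops the cohesin ring at its motif and so marks the bases of chromatin loops, preferentially where 2 motifs point toward each other. AP-1, a dimer of FOS and JUN proteins, opens enhancers in response to growth factors and stress. SOX proteins of the SoxB group, with SOX2 among them, are bound at neural progenitor enhancers, where SOX, ZIC, NFI and RFX motifs are common.

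Each deposited list pools the 3 cultures of its genotype, so fold enrichment and rank carry no replicate error here, and the lists alone allow no test between genotypes. The reads of the single cultures were not analysed here. The parent list held 134705 peaks and the ΔSRR2–18 list 168170 peaks in 107480 intervals. The pooled depths differed 1.98 times, judged by the lowest local background solved from fold enrichment and −log10 p, which was 38.8 reads for parent and 19.7 reads for ΔSRR2–18 NSPCs. Intervals lay within 1 kb of a TSS of all 5 NSPC markers fixed for the label check (*Nes*, *Vim*, *Fabp7*, *Sox1*, *Sox9*) in both lists, and *Pou5f1*, *Nanog* and *Zfp42* of the 4 ESC markers were without one in both. Such intervals stood at 3 parent and 4 ΔSRR2–18 promoters of the 5 neuronal markers, 1 and 0 of the 3 astrocyte markers, 3 and 3 of the 5 oligodendrocyte markers, 2 and 4 of the 4 mesenchymal markers, and 0 and 1 of the 2 endothelial markers. The part that other cell types had in the ranks was not tested.

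The CTCF core was more frequent in members than in either comparison class. It is shown here in 6 members that ranked highest in both lists among those that hold it. Each sequence is 81 bases of the mm10 forward strand, 5′ to 3′, centred on the core in capitals. The core reads on the forward strand on chromosome 19 and in the first of the chromosome 7 lines, and on the reverse strand in the other 4.
chr19:5529478-5529558: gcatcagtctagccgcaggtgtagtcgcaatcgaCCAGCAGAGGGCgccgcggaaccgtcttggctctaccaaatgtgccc
chr4:3967685-3967765: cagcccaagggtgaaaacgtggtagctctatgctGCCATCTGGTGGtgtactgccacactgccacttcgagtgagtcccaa
chr7:113378080-113378160: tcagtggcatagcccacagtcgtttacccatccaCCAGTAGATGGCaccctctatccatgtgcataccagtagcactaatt
chr1:135753056-135753136: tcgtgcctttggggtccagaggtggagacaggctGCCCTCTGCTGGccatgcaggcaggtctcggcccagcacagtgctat
chr7:49923569-49923649: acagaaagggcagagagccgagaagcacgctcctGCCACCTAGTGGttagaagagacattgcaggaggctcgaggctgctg
chr11:62675930-62676010: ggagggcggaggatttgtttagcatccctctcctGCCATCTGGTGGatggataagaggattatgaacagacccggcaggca

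The chromosome 19 site lies in an intron of *Gm31166*, 18.988 kb from the nearest coding TSS, that of *Snx32*. It stood at percentile 99.93 in the parent list and 99.95 in the ΔSRR2–18 list, with 31.9-fold and 33.9-fold enrichment and 3851 and 1651 reads at the summit. The chromosome 4 site is intergenic, 5.846 kb from the TSS of *Gm11808*, and the first chromosome 7 site is intergenic, 8.665 kb from *Btbd10*. The second chromosome 7 site is in an intron of *Slc6a5*, the neuronal glycine transporter gene, 11.91 kb from its TSS. The chromosome 1 site is intergenic near *Phlda3*, a target of p53, and the chromosome 11 site is intergenic near *Mmgt2*. In all 6 the parent percentile was at least 99.57 and the ΔSRR2–18 percentile at least 99.57. The centre of the core lay 1.5 to 62.5 bp from the parent summit and 2.5 to 77.5 bp from the ΔSRR2–18 summit.

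Motifs of neural and signal-dependent factors occurred in members too, and the 2 strongest holders of each are shown for RFX, NFI, AP-1 and SOX in that order. Capitals again mark the motif, and all coordinates are mm10, forward strand, 5′ to 3′.
chr2:10276347-10276427: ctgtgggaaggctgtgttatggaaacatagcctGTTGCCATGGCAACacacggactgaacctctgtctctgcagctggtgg
chr11:94160603-94160683: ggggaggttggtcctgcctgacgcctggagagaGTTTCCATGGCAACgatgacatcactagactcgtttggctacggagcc
chr6:57641910-57641990: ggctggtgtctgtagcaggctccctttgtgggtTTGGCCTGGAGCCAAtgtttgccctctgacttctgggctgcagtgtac
chr3:49642513-49642593: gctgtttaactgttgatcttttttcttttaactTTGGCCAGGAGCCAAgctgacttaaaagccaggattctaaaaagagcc
chr3:152315788-152315868: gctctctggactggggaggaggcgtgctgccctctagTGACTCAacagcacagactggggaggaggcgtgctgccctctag
chr1:153386799-153386879: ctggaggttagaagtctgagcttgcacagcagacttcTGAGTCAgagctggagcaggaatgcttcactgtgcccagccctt
chr16:55378852-55378932: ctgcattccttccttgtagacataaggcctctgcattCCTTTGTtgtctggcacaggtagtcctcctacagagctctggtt
chr4:135439299-135439379: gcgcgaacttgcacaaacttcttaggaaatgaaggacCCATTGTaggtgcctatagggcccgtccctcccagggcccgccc

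The strongest AP-1 member lies in an intron of *Miga1*, which encodes a mitochondrial fusion protein, and stood at percentile 99.998 in the parent list and 99.997 in the ΔSRR2–18 list. Its motif was 1 bp from the parent summit and at the ΔSRR2–18 summit itself. The stretch gccctctagTGA, which overlaps this motif, differs from a reverse-strand CTCF core at 1 letter. The run gactggggaggaggcgtgctgccctctag stands on both sides of the motif. Which of these sequences the summits follow was not tested. The second AP-1 member, 38.283 kb from *Shcbp1l*, had its motif 40 bp from the parent summit and 7 bp from the ΔSRR2–18 summit. The strongest SOX member, 80.865 kb from *Zpld1*, held percentiles of 99.98 and 99.99, and the motif lay 41 bp and 37 bp from the summits. The RFX and NFI examples stood at percentiles from 90.5 to 99.9 in the parent list and from 94.6 to 95.6 in the ΔSRR2–18 list. The RFX example 50.888 kb from *Tob1* also held SOX and ZIC motifs.

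Members covered the whole range of strength. Their parent percentile had a 10th percentile of 13.7, a median of 55.2 and a 90th percentile of 91.0, and in the ΔSRR2–18 list the same points were 12.8, 54.7 and 89.96. Median fold enrichment was 10.9 in the parent list and 11.3 in the ΔSRR2–18 list. Reads at the strongest summit had a median of 764 and 396, and the median ratio of ΔSRR2–18 to parent reads within a member was 0.507, close to the inverse of the ratio of backgrounds. Both percentiles were over 90 in 832 members and under 10 in 639. The difference was within 5 points in 4422 members (32.5%) and within 1 point in 1036 (7.62%), with a median of -0.76. These values chose the members and are a description. Members made up 53.5% of shared distal regions, higher-ranked regions 22.9% and lower-ranked regions 23.7%.

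**Figure D1:**
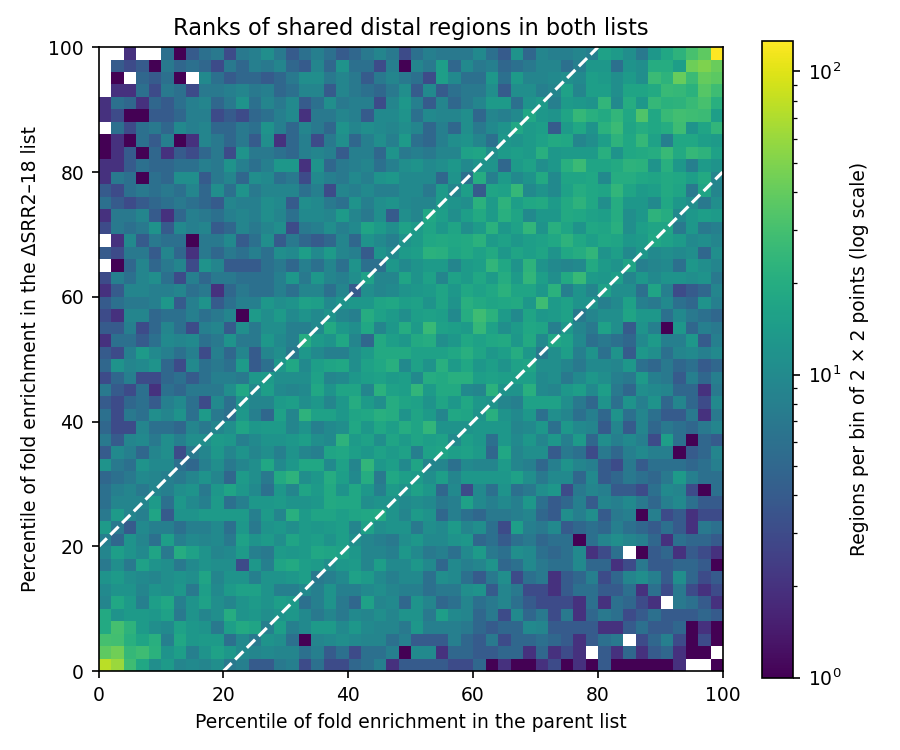
Percentile of fold enrichment in the parent list (x axis) against the ΔSRR2–18 list (y axis) for the 25432 shared distal regions, counted in bins of 2 by 2 points on a log color scale. The 13594 members lie between the dashed lines at -20 and 20 points, and the fullest bins are at the upper right and lower left corners.

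The limits fell in a continuous spread of differences. Just inside the upper limit were a region in an intron of *Trak1*, at percentiles 60.9 and 80.9, and a region in an intron of *Phldb1*, at 18.1 and 38.1. Just outside it were a region 60.945 kb from *Atp11b*, at 56.4 and 76.4, and a region in an intron of *Gas2l1*, at 6.06 and 26.1. At the lower limit, a region in an intron of *Ahnak* was inside at percentiles 22.4 and 2.38 and a region 49.71 kb from *Il17b* at 21.9 and 1.92. A region 32.648 kb from *Proser2* was outside at 26.0 and 6.01, and a region 12.403 kb from *Otulin* at 39.3 and 19.3.

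The 10 members with the highest ranks in both lists stood at percentiles of at least 99.97 in each list. The strongest region of both lists lies on chromosome 2 from 69355469 to 69355735, 12.983 kb from *Abcb11*, with 49.6-fold enrichment in parent and 59.9-fold in ΔSRR2–18 NSPCs. In 5 of the 10, the ΔSRR2–18 summit had more reads than the parent summit despite the shallower list, against 1655 members in all (12.2%). An example is a region in an intron of *Gphn*, which encodes the scaffold of inhibitory synapses, with 3192 parent and 4433 ΔSRR2–18 reads. Another, 11.214 kb from the repressor gene *Hic2*, had 3052 and 4183 reads. Others were intronic in *Araf*, which encodes a kinase of the MAPK pathway, with 2310 and 1115 reads, and in *Gm26561* near the myosin light chain gene *Myl12b*, with 4548 and 4820 reads. Far from genes were regions 1765.8 kb from *G6pd2*, with 1870 and 2854 reads, and 2140.3 kb from *Cdh20*, with 1565 and 1445 reads, and a region 76.274 kb from *Alkbh8* had 1938 and 1303 reads. In all 10 the summits of the 2 lists lay within 10 bp of each other, and 6 were intergenic. By exact match, 0 held a CTCF core and 5 held no motif of the list searched. The 10 weakest members had fold enrichments of 1.42 to 2.18 in the parent and 2.08 to 2.58 in the ΔSRR2–18 list, and 2 of them held a CTCF core.

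A CTCF core was found more often in members than in the regions that changed rank. The core has 12 positions and, like the other motifs, was searched by exact match on both strands, up to 100 bp to each side of a region's strongest parent summit. It stood in 1668 members, or 12.3% (95% Wilson interval, 11.7–12.8), in 6.14% of higher-ranked regions (5.55–6.79) and in 8.46% of lower-ranked regions (7.79–9.19). Windows of the same width 500 bp away from members held it in 0.177% (0.119–0.263). The ratio of the member share to the share in both other classes together was 1.68 (1.55–1.81), at 2.00 (1.79–2.23) against higher-ranked and 1.45 (1.32–1.59) against lower-ranked regions. These intervals, as all those on shares and ratios here, cover counting error over regions and say nothing of variation between cultures. Within groups of similar GC content the ratios were 2.05 and 1.47, and within groups of similar parent percentile 1.91 (1.70–2.14) and 1.45 (1.32–1.60). With ranks by −log10 p in place of fold enrichment the ratio to both classes was 2.79 (2.56–3.05), and with the ΔSRR2–18 list shortened to the parent length it was 1.297 (1.195–1.41).

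Read from the motif's side, 65.8% of the 2535 shared distal regions with a CTCF core were members (63.9–67.6), 14.1% were higher-ranked and 20.1% lower-ranked, against 53.5%, 22.9% and 23.7% of all shared distal regions. Their median percentile difference was -2.55. The core tolerates several spellings, and all 16 that the search allowed occurred in members. The most frequent was CCAGCAGAGGGC, in 191 members, followed by CCACTAGGTGGC in 174 and CCACCAGGGGGC in 168. Of the regions with these spellings, 65.4%, 71.6% and 67.7% were members. The spelling CCAGCAGGGGGC had the smallest member share, with 86 of 171 regions, or 50.3% (42.9–57.7), an interval that lies under those of CCACTAGGTGGC (65.6–76.9) and CCAGCAGGTGGC (64.2–76.7). These spellings were picked from their counts. A looser core with 7 fixed letters gave shares of 24.4% in members, 14.1% in higher-ranked and 19.1% in lower-ranked regions, with 3.35% in member flanks.

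Across groups by the lower of the 2 percentiles, the CTCF share of members ran from 8.73% to 14.4%. It was 10.7% (9.54–11.9) of members below 20, 14.4% (13.2–15.7) of those between 40 and 60 and 12.8% (9.72–16.7) of those above 95. Lower-ranked regions at the top of the parent list, between percentiles 90 and 100, held the core in 5.52% (4.35–6.99), and members at the same height in 10.1% (8.67–11.7). Higher-ranked regions at the bottom of the parent list, below percentile 10, held it in 4.33% (3.23–5.78), and members there in 10.3% (8.64–12.3). A region below percentile 20 in the parent list cannot fall by 20 points and one above 80 cannot rise by 20, so those groups contain 1 comparison class each.

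**Figure D2:**
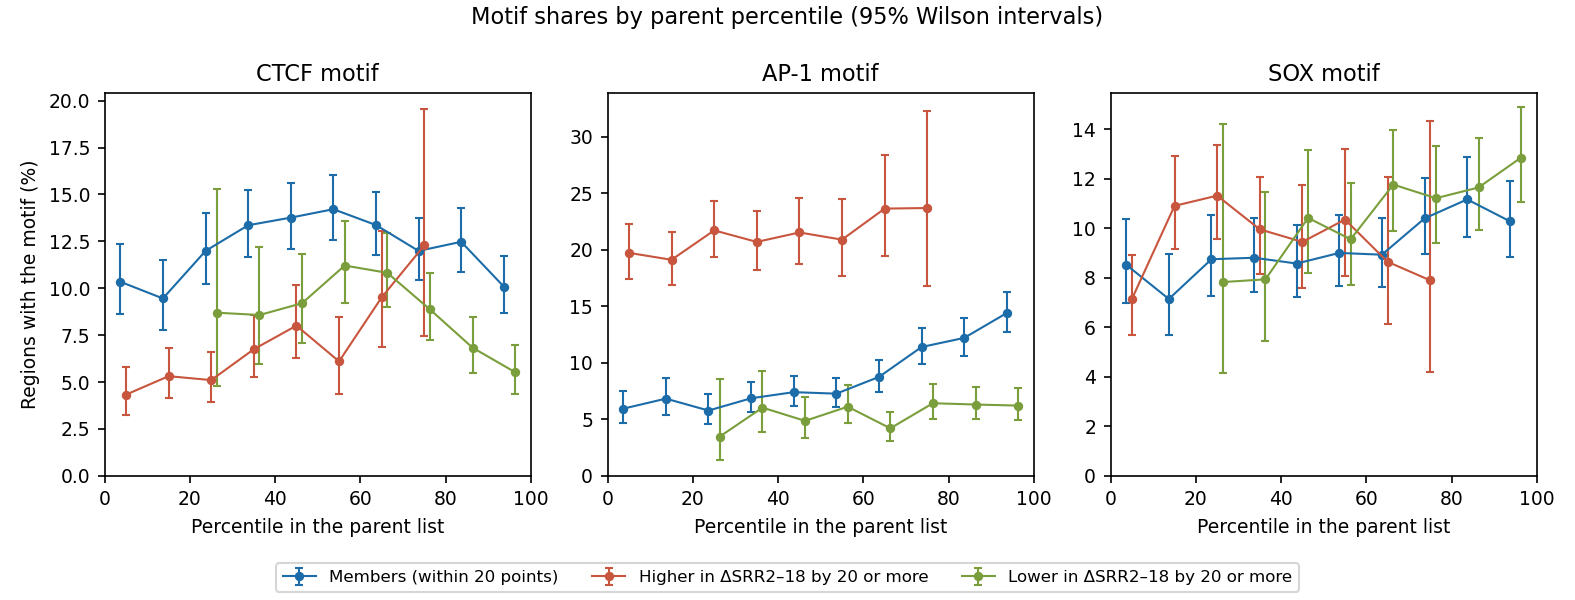
Share of regions with a CTCF, AP-1 or SOX motif (y axis, percent) by percentile in the parent list (x axis, groups of 10 points) for members, higher-ranked and lower-ranked regions, with 95% Wilson intervals. Members lie above the other classes for CTCF in most groups, between them for AP-1, and rise to 14.4% for AP-1 in the highest group.

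For AP-1, members stood between the classes. The motif TGACTCA was present in 8.93% of members (8.46–9.42), 20.8% of higher-ranked regions (19.8–21.8) and 5.74% of lower-ranked regions (5.18–6.36), with 4.08% in member flanks. The ratio of members to higher-ranked regions was 0.430 (0.399–0.463) and to lower-ranked regions 1.56 (1.39–1.75). Within groups of similar ΔSRR2–18 percentile the second ratio was 1.11 (0.976–1.26), an interval that includes 1, and the first was 0.537 (0.498–0.580). Within groups of similar parent percentile the second was 1.79 (1.59–2.01) and the first 0.331 (0.302–0.363), so both depended on which rank was matched. Of the 2768 shared distal regions with the motif, 43.9% were members (42.0–45.7) and 43.6% higher-ranked (41.8–45.5), and their median percentile difference was 14.1.

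The AP-1 share of members was higher in stronger members. It was 6.004% (5.16–6.98) of members whose lower percentile was under 20, 10.6% (9.57–11.7) between 60 and 80, and 16.8% (13.3–21.1) above 95. The base before the motif, read on each strand, was A or G with at least 1 G in 22.6% of members (20.3–25.0), 27.4% of higher-ranked (25.0–30.0) and 19.4% of lower-ranked regions (15.5–23.9), and A on both in 7.83%, 7.70% and 7.23%. Members with the motif numbered 1214. CTCF and AP-1 motifs occurred together in 88 shared distal regions, of which 52 were members, 59.1% (48.6–68.8). The related CRE motif TGACGTCA was rare, at 0.463% of members, and its ratio to each class had an interval that includes 1.

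TEAD factors, the DNA-binding partners of YAP and TAZ, and HOX–PBX dimers showed the same lower share in members than in higher-ranked regions. The TEAD motif ACATTCC was in 7.19% of members (6.77–7.64), 10.5% of higher-ranked (9.72–11.3) and 6.64% of lower-ranked regions (6.04–7.30). The HOX–PBX motif TGATTNAT was in 2.71% of members (2.45–2.99), 4.49% of higher-ranked (3.99–5.05) and 2.31% of lower-ranked regions (1.96–2.72). Its share in members was close to that in their flanks, 2.66%. For the CDX motif TTTATNG and the LHX homeodomain motif TAATTA the members' shares, 5.71% and 3.47%, were below those in their flanks, 9.80% and 5.30%.

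**Figure D3:**
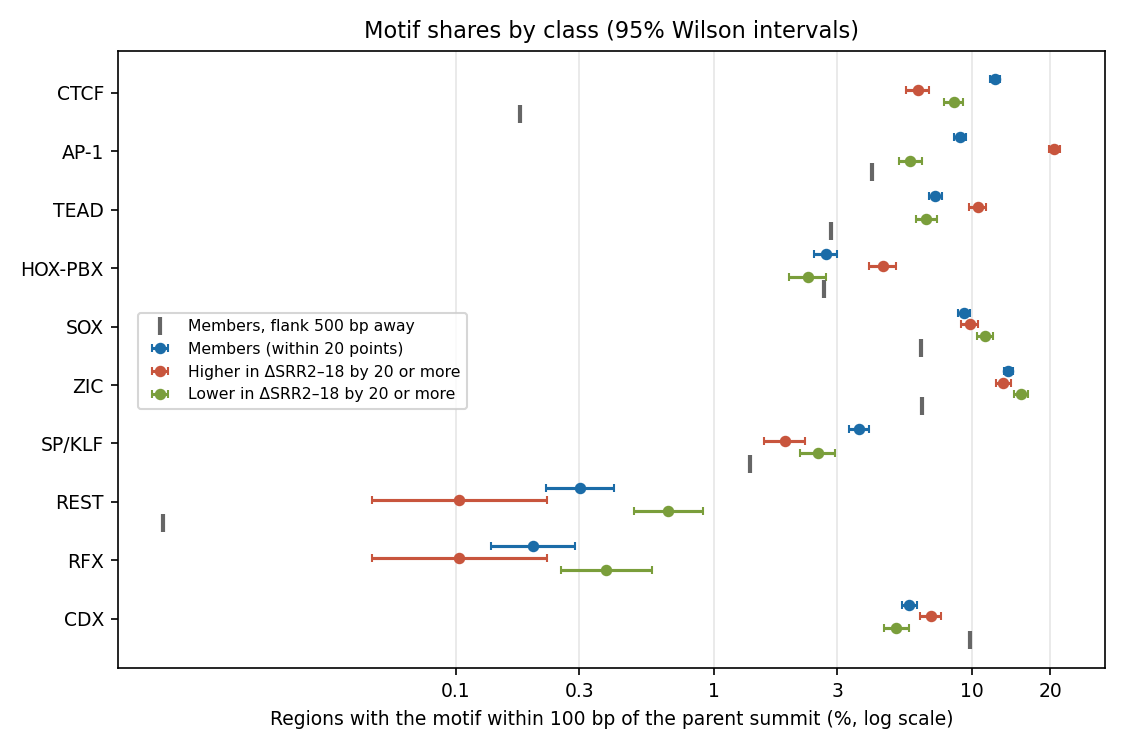
Share of regions (x axis, percent, log scale) with each of 10 motifs within 100 bp of the strongest parent summit, for members, higher-ranked and lower-ranked regions with 95% Wilson intervals, and for windows 500 bp from members (gray ticks, absent for RFX, at 0). CTCF and SP/KLF were most frequent in members, AP-1, TEAD and HOX-PBX in higher-ranked regions, and REST and RFX in lower-ranked regions.

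SOX motifs were slightly less frequent in members than in lower-ranked regions. ACAATGG or ACAAAGG stood in 9.27% of members (8.79–9.77), 9.75% of higher-ranked (9.02–10.5) and 11.2% of lower-ranked regions (10.4–11.99), with 6.33% in member flanks. The ratio was 0.950 (0.865–1.04) against higher-ranked, 0.830 (0.759–0.907) against lower-ranked and 0.885 (0.821–0.953) against both. Against higher-ranked regions it was 0.885 (0.796–0.984) within groups of similar parent percentile and 1.01 (0.914–1.12) within groups of similar ΔSRR2–18 percentile, so the interval included 1 or not depending on which rank was matched. The interval for both classes reached 1.01 in windows of 50 bp to each side of the summit and 1.04 when windows were centred on the ΔSRR2–18 summit. ACAAAGG made up 66.3% of the member sites (63.7–68.9), 64.4% of the higher-ranked and 62.9% of the lower-ranked ones. The ZIC motif CAGCAGG, at 13.8% of members (13.2–14.4), 13.2% of higher-ranked (12.3–14.1) and 15.4% of lower-ranked regions (14.5–16.4), is contained in the CTCF spellings CCAGCAGGTGGC and CCAGCAGGGGGC, found in 141 and 86 members. The POU octamer ATTTGCAT was in 1.31% of members (1.13–1.51), 1.45% and 2.02% (1.70–2.41).

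Among the rarer long motifs, that of REST, the repressor of neuronal genes in progenitors, was in 41 members (0.302%), 6 higher-ranked (0.103%) and 40 lower-ranked regions (0.664%). The ratio of members was 2.92 (1.24–6.88) against higher-ranked and 0.454 (0.294–0.702) against lower-ranked regions, and of all 87 regions with the motif 47.1% were members (37.0–57.5). Within groups of similar GC content the first ratio had an interval of 0.991 to 5.24. The RFX motif, bound by regulators of ciliary genes, was in 27 members, 6 higher-ranked and 23 lower-ranked regions, a ratio of 0.520 (0.299–0.907) to the last. The NFI motif was in 18 members, 7 higher-ranked and 14 lower-ranked regions, and both ratios had intervals that include 1.

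Members also held more of the SP/KLF box and of the CpG dinucleotides typical of promoters, although none lies within 1 kb of a TSS of the basic annotation. The SP/KLF box CCCCGCCC was in 3.64% of members (3.34–3.97), 1.88% of higher-ranked (1.56–2.26) and 2.52% of lower-ranked regions (2.16–2.95), a ratio of 1.94 (1.58–2.38) and 1.44 (1.21–1.73). Within groups of similar GC content the ratios were 1.24 (1.02–1.51) and 1.34 (1.13–1.60). The ETS motif CCGGAAGT was in 0.427% of members, 0.138% of higher-ranked and 0.299% of lower-ranked regions, with ratios of 3.10 (1.48–6.49) and 1.43 (0.842–2.42). The NRF1 motif was in 11, 2 and 1 regions, and its ratios of 2.35 (0.521–10.6) and 4.88 (0.630–37.8) both had intervals that include 1, as did the ETS ratio to lower-ranked regions. Across the 20 motifs, the ratio of members to higher-ranked regions had an interval above 1 for 4 and below 1 for 4, and to lower-ranked regions above 1 for 3 and below 1 for 6. Of the members, 5996 (44.1%) held none of the motifs, and 54.0% of all shared distal regions without one were members, near the 53.5% of all.

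Mean GC content of the window was 52.5% in members, 50.6% in higher-ranked and 52.6% in lower-ranked regions. The difference was 1.89 percentage points (1.69–2.09) from the higher-ranked and -0.16 (-0.36 to 0.05) from the lower-ranked class, and 0.85 (0.68–1.01) from both. With the ΔSRR2–18 list shortened to the parent length it was 0.374 (0.189–0.559) from both. CpG count separated members from both classes, with a mean of 4.41 per window against 3.23 and 3.85. Windows with 10 or more CpG made up 9.71% of members (9.22–10.2), 3.84% of higher-ranked (3.37–4.36) and 5.53% of lower-ranked regions (4.98–6.13), ratios of 2.53 (2.20–2.91) and 1.76 (1.56–1.97). A TSS of the full annotation, which includes transcripts left out of the basic set, lay within 1 kb of 5.85% of members (5.47–6.26), 4.11% of higher-ranked and 4.38% of lower-ranked regions. Repeats covered 7.62%, 7.34% and 7.13% of the window on average, and over 50% of it in 207 members (1.52%).

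The strongest summits of the 2 lists lay closer together in members than in the other classes. The median distance was 17 bp in members, 28 bp in higher-ranked and 24 bp in lower-ranked regions, and 36.2%, 25.1% and 28.0% had summits within 10 bp. Members with a CTCF core had a median of 8 bp, and 59.8% were within 10 bp. Members with an AP-1 motif had a median of 21 bp and those with a SOX motif 24 bp. Summits come from the same lists as the ranks, so these values are a description. Members also had the highest IDR score, 1000, in both lists more often than the rest, in 82.6% against 68.8% and 67.5%. The mean score in the parent and ΔSRR2–18 lists was 980 and 975 in members. It was 929 and 997 in higher-ranked and 998 and 930 in lower-ranked regions, so each of these classes was lower where it ranked lower. Scores come from the same lists as the ranks and are likewise a description. Median widths of members were 681.5 bp in the parent and 627 bp in the ΔSRR2–18 list.

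**Figure D4:**
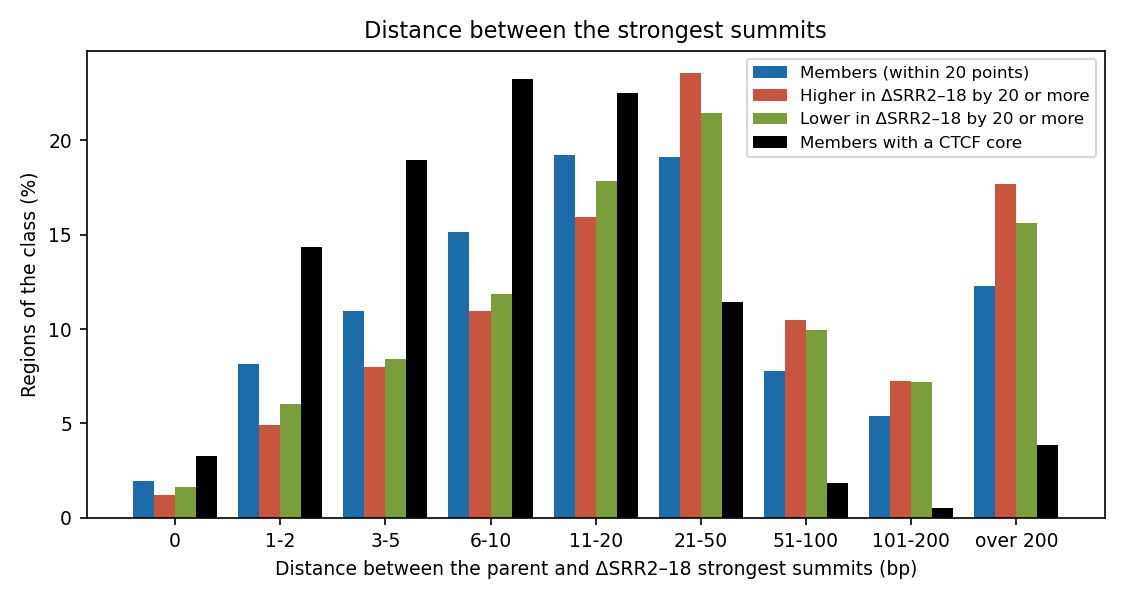
Distance between the strongest parent and ΔSRR2–18 summits (x axis, bp, unequal bins) as a percent of regions of each class (y axis). The fullest bin is 6 to 10 bp for members with a CTCF core, at 23.3%, and 21 to 50 bp for higher-ranked regions, at 23.6%. Bins widen with distance, so the fullest bin is not the most frequent distance.

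Where the motif lay relative to the summit differed between motifs. Of the 1668 CTCF cores of members, 58.3% were centred within 20 bp of the parent summit and 64.3% within 20 bp of the ΔSRR2–18 summit, with median distances of 16 and 14.5 bp. AP-1 motifs lay at a median of 42 bp from the parent and 34 bp from the ΔSRR2–18 summit, and 25.9% and 32.7% were within 20 bp. SOX motifs of members showed the opposite order, with medians of 45 bp from the parent and 66.5 bp from the ΔSRR2–18 summit, and 22.9% and 14.4% within 20 bp. The same orders held in both other classes: AP-1 at 39 and 31 bp in higher-ranked and 46 and 34 bp in lower-ranked regions, SOX at 48 and 78 bp and at 44 and 73 bp. Motifs were searched around the parent summit, which limits parent distances to the window but not ΔSRR2–18 distances. In all, 6.30% of the members' CTCF cores (5.23–7.56) were in repeat-masked sequence, against 8.68% in higher-ranked (6.18–12.1) and 7.84% in lower-ranked regions (5.81–10.5).

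**Figure D5:**
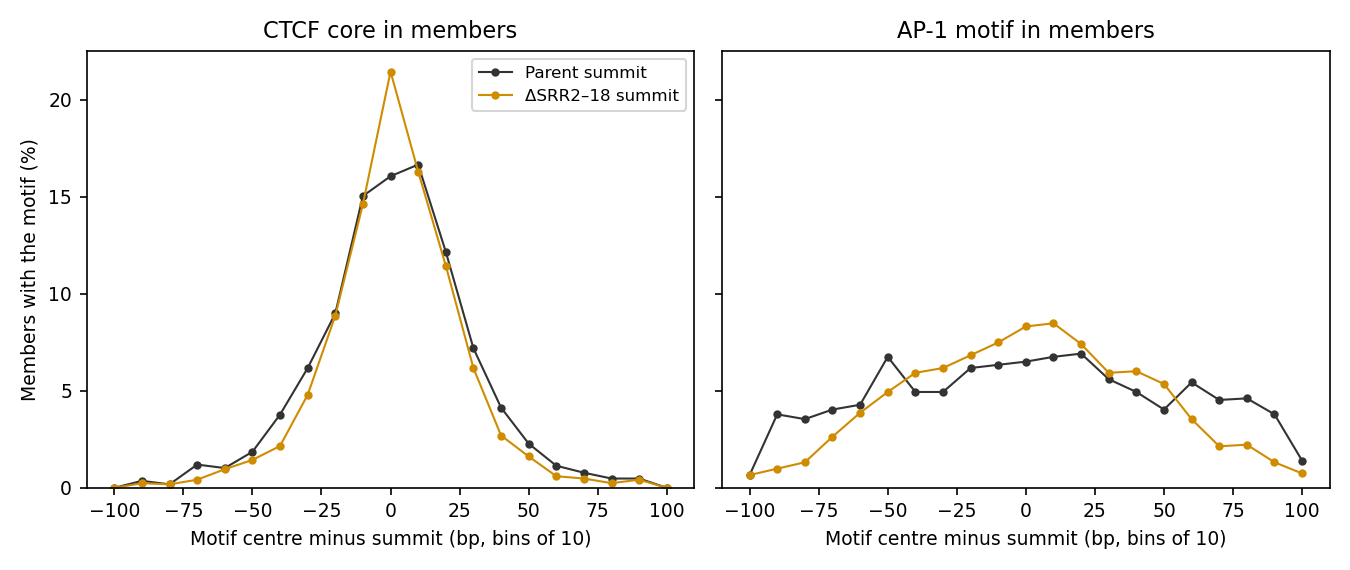
Position of the CTCF core (left) and AP-1 motif (right) relative to the strongest parent and ΔSRR2–18 summits of members (x axis, bp in bins of 10), as a percent of members with the motif (y axis). Motifs farther from the ΔSRR2–18 summit than the axis are not drawn, and the CTCF core peaks at the ΔSRR2–18 summit at 21.5%.

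CTCF cores of members were evenly split between strands, with 831 of 1657 regions with a single core on the forward strand (50.2%, 47.7–52.6). Cores in neighbouring members were compared by strand along each chromosome, counting neither promoters nor regions outside the members. Of 1637 such pairs 26.0% were convergent and 25.8% divergent. The balance changed with distance. At 10 to 100 kb, 18.9% of 217 pairs were convergent (14.2–24.6) and 36.9% divergent (30.7–43.5), whereas over 500 kb 28.3% of 859 pairs were convergent (25.4–31.4) and 21.5% divergent (18.9–24.4). Under 10 kb there were 44 pairs, 6 of them convergent and 16 divergent.

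Members were somewhat less often inside genes than the other classes and lay nearer to a TSS. The summit was in a gene body in 57.7% of members (56.9–58.5), 61.2% of higher-ranked (59.9–62.4) and 59.6% of lower-ranked regions (58.3–60.8), a ratio of 0.956 (0.937–0.976) to both. Exons took 5.39% of members (5.02–5.78), 4.25% and 4.93%, and introns 52.3%, 56.9% and 54.7%. The median distance to a TSS was 12.8 kb in members, 16.2 kb in higher-ranked and 15.0 kb in lower-ranked regions, and 23.6% (22.9–24.3), 17.0% (16.1–18.0) and 17.8% (16.8–18.8) lay 1 to 5 kb from a TSS. By chromosome the member share of shared distal regions was between 50.0% on chromosome 15 and 57.8% on chromosome X (53.8–61.8), leaving out chromosome Y with 5 regions.

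At short range, members lay beside other members more often than beside regions of the other classes. Of neighbouring shared distal regions under 2 kb apart, 64.5% of those beside a member were members and 43.8% of those beside a region of another class, and at 10 to 50 kb these shares were 53.0% and 53.1%. Where neither neighbour was a member and the 2 were under 2 kb apart, 193 of 300 pairs had moved in opposite directions (64.3%), against 49.6% over 50 kb. Ranks defined these classes, so the values are a description.

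Each region was assigned to the nearest protein-coding TSS within 50 kb, which gave 9298 members at 6265 genes. A single member stood at 4285 of these genes. The most, 10, were at *Bcor*, a component of a Polycomb complex, at *Mrps23* and at *Sept9*. In that order, these had 13, 12 and 17 shared distal regions. Of 441 genes with 5 or more shared distal regions, all such regions were members at 22, among them *Trim27* with 9, *Trio* with 8, *Ptma* with 7, the actin gene *Actg1* with 5 and the stress response gene *Gadd45g* with 5, and none was a member at 9. These genes were singled out by their counts, and members were 53.5% of all shared distal regions. How many genes would have all or none of their regions as members at that share alone was not tested.

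Gene lists chosen for this tissue held small numbers of regions, and their member shares are read beside the 53.5% of all shared distal regions. For radial glia and neural progenitor genes, 18 of 41 regions were members (43.9%, 29.9–59.0), 13 were higher-ranked and 10 lower-ranked. A member on chromosome 3 from 87960505 to 87961191, 10.112 kb from *Nes*, the intermediate filament of neural stem cells, had 21.8-fold enrichment in parent and 18.9-fold in ΔSRR2–18 NSPCs, percentiles 94.2 and 84.9. At the Notch receptor gene *Notch1*, 4 of 9 regions were members, the strongest 22.046 kb away on chromosome 2 from 26525376 to 26526121 at percentiles 91.5 and 92.0. At the Notch target *Hes1*, 4 of 8 were members and 4 higher-ranked. An intronic member at the receptor phosphatase gene *Ptprz1* stood at 57.4 and 69.1, and a member near the glutamate transporter gene *Slc1a3*, with AP-1 and SOX motifs, at 58.5 and 69.0. *Fabp7* and *Sox9* each had 1 shared distal region, both lower-ranked.

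Forebrain identity genes had 12 members of 19 regions (63.2%, 41.0–80.9). Both regions of *Six3*, a regulator of the anterior forebrain and eye field, were members, and the stronger, 24.866 kb away on chromosome 17 from 85645310 to 85646584, stood at percentiles 94.7 and 93.7. Both regions of *Emx2*, a cortical patterning gene, were members too. The stronger, 25.931 kb away in an intron of an annotated gene not named here, stood at 77.1 and 75.1. Both regions of *Lhx2* were lower-ranked, and *Emx1* and *Fezf2* had no shared distal region within reach. Caudal identity genes had 3 members of 15 regions (20.0%, 7.05–45.2), 10 lower-ranked and 2 higher-ranked, and a median percentile difference of -30.5. The members were 1 region near *Hoxb9*, at percentiles 56.5 and 56.5, and 2 at the Wnt ligand gene *Wnt3a*, the stronger at 45.5 and 59.3. The higher-ranked regions were the other one of *Hoxb9*, which went from percentile 27.9 to 81.1 with 6.35-fold and 17.7-fold enrichment, and 1 of the 2 of *Cdx2*, a caudal homeobox gene, from 8.03 to 59.5. The other *Cdx2* region went from 75.8 to 45.3, and both regions of *Hoxb8* and both of *Hoxc8* were lower-ranked, one of *Hoxc8* going from 91.7 to 6.07. The caudal count depended on the value ranked. By −log10 p, 9 of the 15 regions were members (60.0%, 35.7–80.2), beside 54.4% of all shared distal regions, and the median difference was -1.37. With limits of 10 and 30 points, 1 and 5 of the 15 were members, beside 31.1% and 68.3% of all. Regions called in 1 list only are outside these counts. The caudal list also named *Tbxt*, a symbol that matched no gene of the annotation, so that gene was not counted.

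In the other lists members were 7 of 8 regions for cohesin and CTCF genes (87.5%, 52.9–97.8), with 3 at *Nipbl*, the cohesin loader, and 1 at *Rad21*, a ring subunit, at percentiles 7.33 and 14.3, whereas the single region of *Ctcf* itself was higher-ranked. They were 14 of 20 for housekeeping genes (70.0%, 48.1–85.5) and 14 of 19 for imprinted loci (73.7%, 51.2–88.2). All 3 regions of *Kcnq1* were members, the strongest at 82.1 and 82.7, and the strongest of 2 at *Grb10*, which encodes a growth factor receptor adaptor, stood at 92.6 and 87.8. For growth factor and AP-1 response genes 26 of 34 were members (76.5%, 60.0–87.6), an interval above 53.5%. With limits of 10 points it was 41.2% (26.4–57.8), beside 31.1% of all, with the ΔSRR2–18 list shortened to the parent length 47.8% (29.2–67.0), beside 47.0%, and with a TSS distance of 2.5 kb 69.2% (50.01–83.5), beside 52.4%, each with an interval that includes the share of all. The intervals are not adjusted for the number of lists. At *Fos* 4 of 6 were members, the strongest 18.436 kb away on chromosome 12 from 85454913 to 85456030 at percentiles 90.4 and 91.2. The other *Fos* regions were 1 higher-ranked and 1 lower-ranked. All 3 regions of *Fosb* were members, the strongest at 99.4 and 82.8, as were both of *Junb* and the single ones of *Jun* and *Fosl2*. The single region of *Atf3* was lower-ranked, and *Fosl1*, *Jund* and *Myc* had no shared distal region within reach. At *Etv4* and *Etv5*, targets of FGF signaling, 4 of 6 and 2 of 3 were members. Regions of a gene share its neighbourhood and are not independent, and the members' count in a list compares neither expression nor activity of its genes.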

How the data were processed

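The authors performed ATAC-seq on nuclei of parent and ΔSRR2–18 NSPCs, 3 cultures each. The labels give 30000 cells per culture and the paper a range that begins there. Reads were processed with the ENCODE ATAC-seq pipeline (1.10.0 per the paper), peaks were called with MACS2 on mm10 and combined by IDR. The deposited lists pool the cultures of a genotype. Per peak, the authors' deposited columns used here are a score from IDR, a fold enrichment ratio over local background, a −log10 p and a summit offset. deepTools is also named in the submitters' processing notes. Reads came from a hybrid genome and were placed on the C57BL/6J reference, and the lists do not separate alleles.

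Values are from the conservative lists. Alternatives were the optimal lists, other limits, ranks, overlaps, TSS distances and windows. An interval took the value of its strongest summit. Summit reads, the height of the read pileup, were solved from fold enrichment and −log10 p and were whole within 0.05 for 99.999% of parent and 100% of ΔSRR2–18 peaks. Ranks were not corrected for depth. Positions come from GENCODE M21 basic, and sequences and repeat masking from the RefSeq copy of GRCm38, with Python 3.11.15, pandas 2.3.3 and numpy 2.4.6. Motifs were exact matches of 20 consensus sequences on either strand, read from the reference, so variants of the 129 and Cast alleles were not seen. Shares carry 95% Wilson intervals, ratios 95% intervals on the log scale, and ratios within 10 groups are Mantel–Haenszel ratios. Regions were named by rule: the 10 strongest and 10 weakest members, those next to the limits, the strongest member of each list gene and the strongest motif holders outside chromosome 18. Other regions, spellings and genes were chosen from their values. Members and lists were chosen with earlier results of these data known. The overlap, motif, ratio and read steps were tested on simulated data.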

Additional observations from a re-analysis of the deposited data

How the results depend on the processing

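No paired analysis was possible because each list pools the 3 cultures of a genotype, and for the same reason leaving out a culture in turn was not possible. The member share of shared distal regions was 53.5%. It was 31.1% with limits of 10 points, 68.3% with limits of 30 points, 54.4% with ranks by −log10 p, 52.6% with percentiles among shared distal regions, 47.0% with the ΔSRR2–18 list shortened to the parent length, 56.2% with 50% reciprocal overlap and 52.4% with a TSS distance of 2.5 kb. The other 4 alternatives (optimal lists, merged intervals, an IDR score of at least 830, autosomes) kept it within its interval. The SOX ratio of members to both other classes, 0.885, was 0.908 (0.817–1.01) in windows of 50 bp to each side of the summit. Around the ΔSRR2–18 summit it was 0.953 (0.878–1.04). Both of these intervals include 1, and in its other 13 alternatives the interval stayed below 1. The ratio to both classes together ran from 1.297 to 2.79 for CTCF over 16 alternatives and from 0.532 to 0.908 for AP-1 over 15. For gene bodies it ran from 0.936 to 0.970 over 12. Each of these had an interval on the same side of 1. For AP-1 the ratio joins classes on opposite sides of members, at 0.430 to higher-ranked and 1.56 to lower-ranked regions. Only the GC and rank groups were repeated against each class alone. The GC difference ran from 0.37 points, with the ΔSRR2–18 list shortened, to 1.13, with windows of 50 bp to each side of the summit, over 14. Gene list counts were repeated under 11 list alternatives, chosen after seeing the data. The caudal interval lay below the share of all shared distal regions except by −log10 p and with the shortened list (2 of 9 regions, 22.2%, beside 47.0%), and the radial glia interval lay below it by −log10 p alone (34.1%, 21.6–49.5). The cause of these shifts was not tested. The pooled depth of the lists differed 1.98 times, and counting intervals do not cover variation between cultures.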
